A study of Homo sapiens with 6 samples.

Results

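The JAK kinases and STAT factors were represented by 9 genes of the 18417 analysed: the kinases JAK1, JAK2, JAK3 and TYK2, and the transcription factors STAT3, STAT4, STAT5A, STAT5B and STAT6. They were taken by name from a fixed list, and each was read by the 1 probe set of the array that carries its symbol alone. The treated group comprised 3 samples of MDA-MB-231 cells exposed to 500 nM EC-70124 for 24 h. MDA-MB-231 is a cell line of human origin from a breast cancer of the triple negative type. EC-70124 is an inhibitor of several protein kinases. The control group comprised 3 samples of the same line labelled only as control, and each sample was hybridized to 1 Affymetrix Human Gene ST array. The methods call the samples independent, and all 6 come from 1 cell line, so that the p-values measure the spread between cultures of that line. The unit is the model-based expression index (MBEI), a normalized intensity on a linear scale, which measures mRNA and neither protein nor phosphorylation.

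Cytokine receptors have no kinase activity of their own. A JAK kinase bound to the receptor tail phosphorylates the receptor when a cytokine arrives, and STAT factors that dock there are phosphorylated in turn, pair up and enter the nucleus to switch on genes. Among these genes are those of the SOCS proteins, which shut the receptor down again. In breast cancer cells, STAT3 is known for its link with survival and stem-like properties, and STAT5A and STAT5B with prolactin signals of the mammary epithelium.

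EC-70124 was accompanied by small changes of 3 STAT transcripts, whereas no JAK transcript passed the test. STAT4 and STAT6 rose by 33.9% (95% interval 22.5% to 46.5%) and 27.2% (16.6% to 38.7%) in treated cells, and STAT5B fell by 19.3% (interval -28.3% to -9.01%, n = 3 arrays per group). The threshold was an adjusted p of 0.05 (limma, Benjamini-Hochberg over all genes). It was passed by 2 of the 9 genes upward and by 1 downward, or 33.3% of them. Over all genes 34.5% were called in either direction, 19.7% up-regulated and 14.8% down-regulated, so that the share among JAK and STAT genes was close to the background. The split of the background was 3631 up-regulated and 2722 down-regulated genes, and with quantile normalization it was 3112 and 3527. The changes were also modest in size. The median absolute log2 fold change was 0.10 for the 9 genes and 0.14 for all genes, and 0 of the 9 exceeded 0.5, against 12.9% of all genes.

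**Figure D1:**
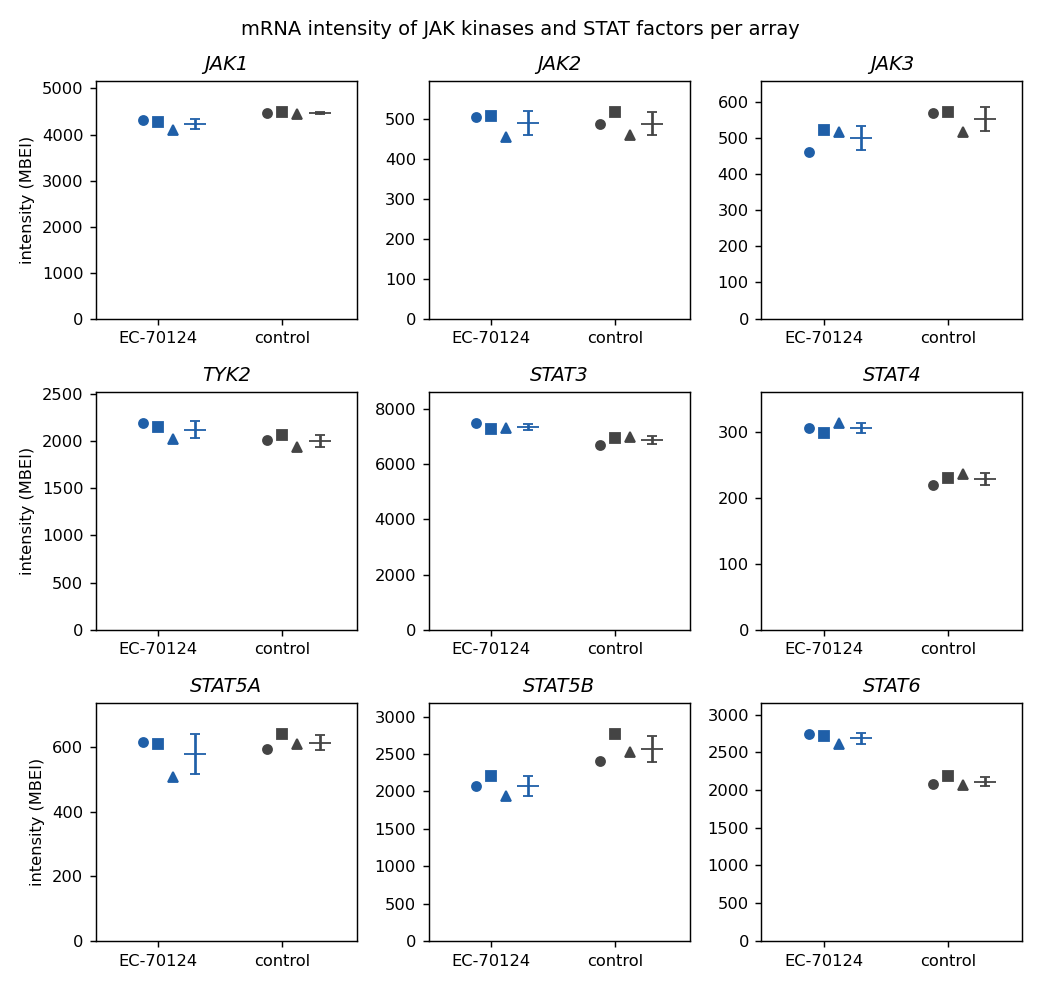
Intensity (MBEI, linear axis from 0) of each JAK and STAT gene in the 3 EC-70124 arrays (blue) and the 3 control arrays (gray); circles, squares and triangles are replicates 1, 2 and 3, and the bar at the right of each group is the mean with SD. STAT4 and STAT6 lie higher in all 3 treated arrays, STAT5B lies lower, and the JAK genes lie close together in both groups.

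JAK1 works at the receptors that share gp130, at interferon receptors and at those with the common gamma chain. Its intensity was 4304, 4282 and 4102 in EC-70124 replicates 1, 2 and 3, and 4463, 4488 and 4454 in control replicates 1, 2 and 3. All treated arrays were below all control arrays, by a small margin, and the control arrays were almost identical (4229 ± 111 in treated and 4468 ± 17.9 in control cells, SD, n = 3 each). The log2 fold change of -0.08 (standard error 0.05) did not pass the test (adjusted p = 0.288 from limma), and its 95% interval reaches from -12.9% to 2.76%.

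JAK2 transmits the signals of homodimeric receptors, such as those of erythropoietin, growth hormone and prolactin. Its intensity was 505, 506 and 454 in treated cells, and 487, 517 and 459 in control cells. The groups overlapped and their means were alike (488 ± 29.6 in treated and 488 ± 28.8 in control cells, SD, n = 3 each). The interval of the change was -10.5% to 12.1% (adjusted p = 0.985 from limma), which bounds a change of the JAK2 transcript without showing that there was none.

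JAK3 binds the common gamma chain and is known mainly from lymphocytes. It had 460.2, 523 and 515 in treated cells, and 569.6, 571 and 515 in control cells. EC-70124 replicate 1 was the lowest array and control replicates 1 and 2 were the highest, but control replicate 3 lay within the treated range. Limma gave a log2 fold change of -0.15 (adjusted p = 0.171, standard error 0.07), with an interval of -19.5% to 1.57%. TYK2, the partner of JAK1 or JAK2 at interferon and interleukin-12 receptors, had 2187, 2149 and 2022 in treated cells, and 2004, 2059 and 1929.8 in control cells. Its groups overlapped as well, and limma gave 0.08 on the log2 scale (adjusted p = 0.316, standard error 0.06) with an interval of -3.34% to 16.4%.

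STAT3, the main factor downstream of gp130 cytokines, had 7489.6, 7281 and 7303 in treated cells, and 6713, 6942 and 6991 in control cells. Every treated array was above every control array (7358 ± 115 in treated and 6882 ± 149 in control cells, SD, n = 3 each). The difference was nevertheless small, with a log2 fold change of 0.10 (standard error 0.05, interval -1.53% to 16.1%), and did not pass the test over all genes (adjusted p = 0.198 from limma).

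STAT4 mediates interleukin-12 signals in T and NK cells. It had 307, 299 and 314 in treated cells, and 219, 231 and 236 in control cells. The lowest treated array exceeded the highest control array, and the spread within each group was narrow (307 ± 7.75 in treated and 229 ± 8.61 in control cells, SD, n = 3 each). Limma gave 0.42 on the log2 scale (adjusted p = 0.000632, standard error 0.06), the largest change among the 9 genes. Of all genes called, 47.8% had a larger absolute change. The deposited table gives no background level, so how much of a dim signal such as that of STAT4 is background was not tested.

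STAT6 answers to interleukin-4 and interleukin-13. It had 2738, 2709 and 2607 in treated cells, and 2081, 2181 and 2072 in control cells. The groups were clearly apart (2685 ± 69.1 in treated and 2111 ± 60.9 in control cells, SD, n = 3 each), and limma gave 0.35 on the log2 scale (adjusted p = 0.00147, standard error 0.05).

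STAT5A and STAT5B are near-identical factors that answer to prolactin, growth hormone and interleukin-2. STAT5B had 2074, 2206 and 1936 in treated cells, and 2409, 2763 and 2528 in control cells. All treated arrays were lower than all control arrays (2072 ± 135 in treated and 2567 ± 180.2 in control cells, SD, n = 3 each). Limma gave an adjusted p of 0.0129 for its log2 fold change, -0.31 with a standard error of 0.07. With the methods' t-test the adjusted p of STAT5B was 0.0747, and its values over the alternatives spanned 0.00351 to 0.0747. STAT5A had 617, 610.2 and 507 in treated cells, and 593, 639 and 609 in control cells. Only EC-70124 replicate 3 was below the control arrays, and the treated spread was the wider one (578 ± 61.4 in treated and 614 ± 23.6 in control cells, SD, n = 3 each). The log2 fold change was -0.09 (standard error 0.08, interval -18.0% to 7.46%, adjusted p = 0.466 from limma), and without EC-70124 replicate 3 it was 0.00045.

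**Figure D2:**
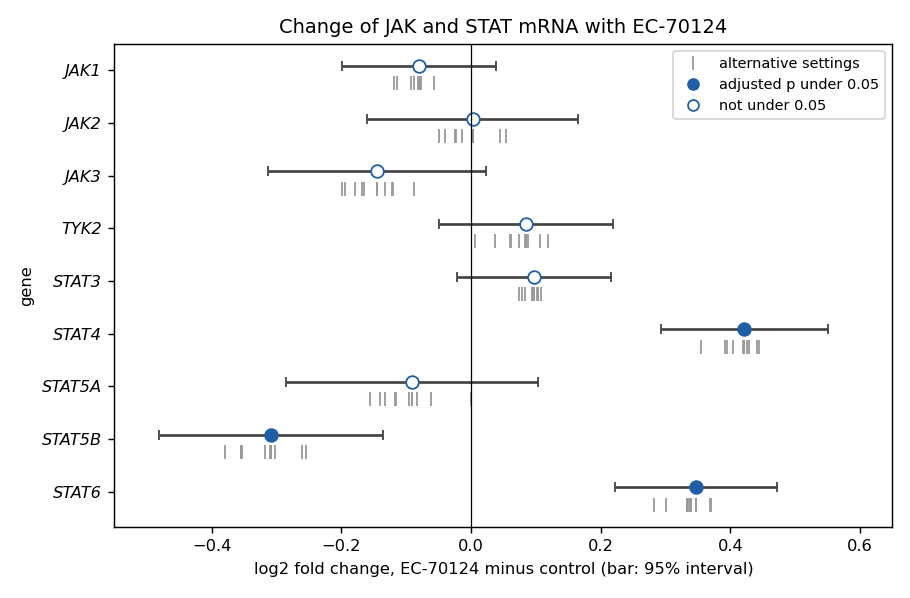
Log2 fold change (EC-70124 minus control, x axis) of each JAK and STAT gene (y axis), with the 95% interval from limma over 3 arrays per group; filled circles passed an adjusted p of 0.05, and gray ticks are the values under the alternative settings. STAT4 and STAT6 lie at 0.42 and 0.35 and STAT5B at -0.31, and the intervals of the other genes include 0.

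Since STAT5A and STAT5B are so alike, their difference was also taken within each array, where a scale factor of the array cancels. Log2 STAT5A minus log2 STAT5B was -1.75, -1.85 and -1.93 in EC-70124 replicates 1, 2 and 3, and -2.02, -2.11 and -2.05 in control replicates 1, 2 and 3. Every treated array was higher, and the group means differed by 0.22 (exact permutation test, two-sided, p = 0.1, the smallest that 3 against 3 arrays allow; p = 0.2 adjusted over the 2 pairs compared). RNA of either gene may bind probes of the other, and the extent of this was not tested. The second pair was JAK2 and JAK1, for which log2 JAK2 minus log2 JAK1 was -3.09, -3.08 and -3.18 in treated cells, and -3.20, -3.12 and -3.28 in control cells. Here the groups overlapped (difference of means 0.08, exact permutation p = 0.2, adjusted p = 0.2).

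**Figure D3:**
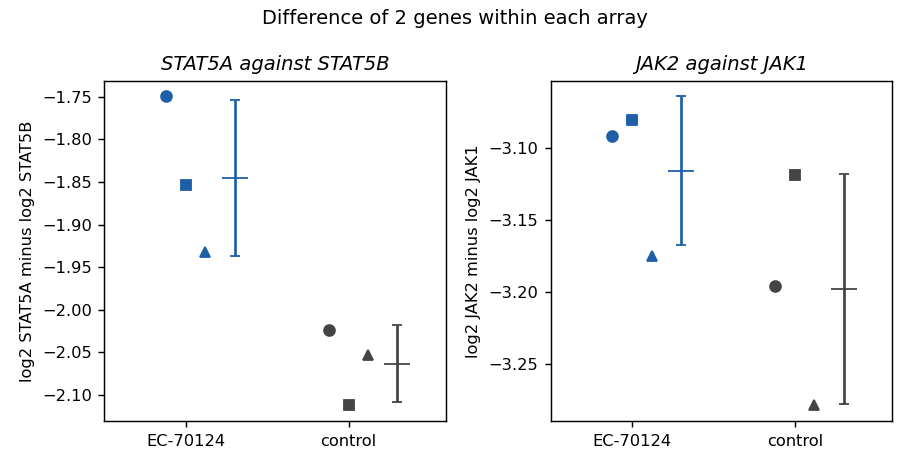
Difference of the log2 intensities of 2 genes within each array (y axis, log2 units; the axes do not start at 0) in EC-70124 (blue) and control arrays (gray), STAT5A minus STAT5B at the left and JAK2 minus JAK1 at the right; symbols are replicates 1 to 3, bars are means with SD. The STAT5A to STAT5B difference lies between -1.93 and -1.75 in treated arrays and between -2.11 and -2.02 in control arrays, whereas the JAK2 to JAK1 differences overlap.

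The groups did not overlap for 5 of the 9 genes, STAT3, STAT4 and STAT6 above and JAK1 and STAT5B below, whereas 47.6% of all genes did not overlap (25.6% above and 22% below). Taken gene by gene, the exact permutation test gives 0.1 for each of the 5, which is also the smallest value it can give. EC-70124 replicate 3 was the lowest of its group for 6 of the 9 genes, and control replicate 2 the highest of its group for 7 of 9. Leaving out either of them, or any other array, left each call and each non-call of the 9 genes as it was.

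The genes of STAT3, STAT5A and STAT5B are direct neighbours on chromosome 17, with STAT5A in the middle (order of protein-coding genes in GRCh38.p14). Their log2 fold changes of 0.10, -0.09 and -0.31 differed in sign along this stretch, and only that of STAT5B passed the test. The promoter windows of the genes that moved, and 1 of the 3 windows of STAT5A, the one that holds a motif match, are shown because STAT dimers bind a short palindrome, TTCNNNGAA, and STAT6 dimers prefer TTCNNNNGAA. Both motifs read the same on both strands. RefSeq gives 17 windows for the 9 genes, from 250 bases before to 50 bases after a start site. TTCNNNGAA was found in 0 of the 17, against 7.66% of 35114 windows of all genes, and TTCNNNNGAA in 1 of the 17, against 6.44%. The match lies in a window of STAT5A, TTCCTCTGAA, whose first base is at position -229 from the start site, and is in capitals below (RefSeq, GRCh38.p14, 5′ to 3′ in the direction of transcription). The windows differ in base composition, with 82% G and C for STAT5B, 57.7% for STAT6, 56.3% for the STAT5A window shown (62.3% and 75% for its other windows), and 49% and 56.7% for those of STAT4. A match is a stretch of letters and does not show binding.
STAT5B, chr17:42276342-42276641, minus strand: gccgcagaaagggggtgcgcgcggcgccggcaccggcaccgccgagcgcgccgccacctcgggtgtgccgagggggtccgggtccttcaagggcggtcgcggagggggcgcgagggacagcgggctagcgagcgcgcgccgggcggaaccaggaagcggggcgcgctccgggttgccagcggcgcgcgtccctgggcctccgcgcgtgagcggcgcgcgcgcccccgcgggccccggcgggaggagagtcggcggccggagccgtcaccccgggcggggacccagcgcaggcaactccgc
STAT5A, chr17:42287189-42287488, plus strand: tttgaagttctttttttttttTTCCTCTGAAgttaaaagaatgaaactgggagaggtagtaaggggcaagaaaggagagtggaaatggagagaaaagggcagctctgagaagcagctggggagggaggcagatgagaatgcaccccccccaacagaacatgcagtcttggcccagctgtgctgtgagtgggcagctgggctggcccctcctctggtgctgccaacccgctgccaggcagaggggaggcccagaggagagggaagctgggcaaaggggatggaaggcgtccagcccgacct
STAT6, chr12:57110240-57110539, minus strand: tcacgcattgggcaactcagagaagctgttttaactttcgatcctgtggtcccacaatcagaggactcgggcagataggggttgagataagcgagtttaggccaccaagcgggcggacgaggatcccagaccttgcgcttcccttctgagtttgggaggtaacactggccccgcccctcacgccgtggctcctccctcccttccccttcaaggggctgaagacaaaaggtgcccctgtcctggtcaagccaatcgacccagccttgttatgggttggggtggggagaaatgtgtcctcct
STAT4, chr2:191151547-191151846, minus strand: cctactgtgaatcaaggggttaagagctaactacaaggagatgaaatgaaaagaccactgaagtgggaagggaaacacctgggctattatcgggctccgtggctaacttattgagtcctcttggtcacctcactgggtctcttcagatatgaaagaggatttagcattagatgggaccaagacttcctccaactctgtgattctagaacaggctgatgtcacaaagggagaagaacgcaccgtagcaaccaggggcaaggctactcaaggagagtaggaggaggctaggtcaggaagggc
STAT4, chr2:191150945-191151244, minus strand: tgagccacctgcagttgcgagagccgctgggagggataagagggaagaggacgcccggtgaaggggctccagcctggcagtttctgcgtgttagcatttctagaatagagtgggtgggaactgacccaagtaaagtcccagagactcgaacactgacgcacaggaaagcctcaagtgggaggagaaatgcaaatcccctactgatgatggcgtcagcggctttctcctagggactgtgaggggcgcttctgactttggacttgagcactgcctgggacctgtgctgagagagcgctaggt

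The genes with the pattern most like that of STAT4 over the 6 arrays were CHAC2 and EIF3J (Pearson's r of the log2 intensities 0.999 for both). Those most like STAT5B were NLGN1 and ANPEP (r = 0.997 and 0.995). These are values for the closest of 6352 called genes, and all of them carry the difference between the groups. Of these genes, 1788 had an r over 0.95 with STAT4 and 323 with STAT5B.

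Upstream of the kinases, members of the gp130 system moved in both directions. The list of gp130 cytokines holds 7 measured genes, among them IL31, which signals without gp130. Of these 7, IL6 was up-regulated (log2 fold change 1.38, adjusted p = 6.5e-06 from limma) and LIF was down-regulated (-0.62). They make up 28.6% of the 7, against 34.5% of all genes called. Without EC-70124 replicate 3, 3 of the 7 were up-regulated. The list of receptors of this family holds 9 measured genes, among them EBI3, a secreted cytokine subunit, and IL31RA, which signals without gp130. Of these 9, 3 rose, EBI3 included, and 3 fell, IL31RA included (66.7%, against 34.5% of all genes). With the methods' t-test 1 rose and 2 fell. IL6ST, which encodes gp130 itself, was among those that rose (0.89, adjusted p = 1.6e-05 from limma). It had 5815, 5433 and 5631 in treated cells, and 3049.9, 3087 and 2984 in control cells. IL27RA rose as well (0.48), whereas OSMR (-0.48) and IL6R (-0.39) fell. JAK1, a kinase that binds gp130, and the main factor STAT3 did not pass the test in the same arrays, nor did JAK2 and TYK2.

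At the receptors of JAK3, IL2RG, the common gamma chain, was up-regulated (1.25), with 430.4, 384 and 291 in treated cells, and 163, 143 and 154 in control cells. It was listed with 10 other receptor genes, which include chains that signal without the common gamma chain and JAK3. Of these 11 genes, 4 fell and 1 rose (45.5%, against 34.5% of all genes). IL15RA (-1.14) and IL4R (-0.34, adjusted p = 0.0306 from limma), which work with the common gamma chain, fell. CRLF2 (-0.35), the receptor of TSLP, and IL13RA1 (-0.35), both of which do without that chain, fell as well. Without control replicates 1 and 2 in turn, the list had 3 and 2 genes that fell, and IL4R was not among them. With the methods' t-test 1 gene, IL15RA, fell and 0 rose (IL2RG at an adjusted p of 0.0568). CRLF2 had an adjusted p of 0.0517 without control replicate 2 and 0.0516 without control replicate 3. Of 8 common beta chain and homodimeric receptors, which use JAK2, CSF2RA alone passed (0.42), or 12.5% of them, against 34.5%. It did not pass with the methods' t-test (adjusted p = 0.114), and 1 gene of the list fell without control replicate 1 and after quantile normalization. Receptors of interferons and of the interleukin-10 and -12 families use JAK1, JAK2 and TYK2 in differing pairs. Of 13 of them, 2 rose and 1 fell (23.1%, against 34.5% of all genes). The called genes are IL20RB (1.54) and IFNAR1 (0.56), which rose, and IFNAR2, the other chain of the type I interferon receptor (-0.53), which fell. IL20RB had 523, 501 and 830 in treated cells, and 186, 212 and 223 in control cells. With the methods' t-test 1 of the 13 rose and 0 fell, and IL20RB had an adjusted p of 0.0669.

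Among 19 inhibitors of JAK and STAT proteins, 7 rose and 4 fell (57.9%, against 34.5% of all genes), with a median log2 fold change of -0.04, against -0.0045 for all genes. With the methods' t-test, 4 rose and 2 fell, and SOCS3 had an adjusted p of 0.0642. SOCS4 (1.01), the phosphatase PTPN2 (0.65) and SOCS2 (0.54) were higher in treated cells. SOCS3, which blocks gp130 signals and is itself switched on by STAT3, was lower (-0.80), with 596, 655 and 781 in treated cells, and 1139.7, 1141 and 1229 in control cells. Of 18 partners and adaptors of the STAT factors, 5 rose and 4 fell (50%, against 34.5% of all genes). KPNA5, an importin, was at 0.71, the coactivator CREBBP at 0.65, and the adaptors GAB2 and SH2B2 at -0.63 and -0.60.

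Known STAT3 targets were mixed, in a list that does not hold SOCS3. Of 20, 5 rose and 2 fell (35%, against the background of 34.5%), with FOS at 0.71, CEBPB at 0.63, JUNB at 0.54 and the kinase gene PIM1 at -1.04. JUNB did not pass without EC-70124 replicate 1 (adjusted p = 0.0856), EC-70124 replicate 2 (0.0937), or control replicates 1, 2 or 3 (0.0786, 0.0598 and 0.0893). The count depended on the settings, with 5 targets down-regulated after quantile normalization, 2 to 6 up-regulated with single arrays left out, and 0 of the 20 passing in either direction with the methods' t-test. Of 15 targets of STAT5 and STAT6, 7 fell and 1 rose (53.3%, against 34.5% of all genes). PIM1, TGM2 (-0.70) and BCL6 (-0.66) were lower and SOCS2 was higher. STAT6 itself rose and STAT5B fell in these arrays. The list mixes targets of both and does not separate induced from repressed targets. Its count can therefore not be assigned to either factor, nor read as more or less STAT activity. With the methods' t-test, 1 of these 15 fell and 1 rose.

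**Figure D4:**
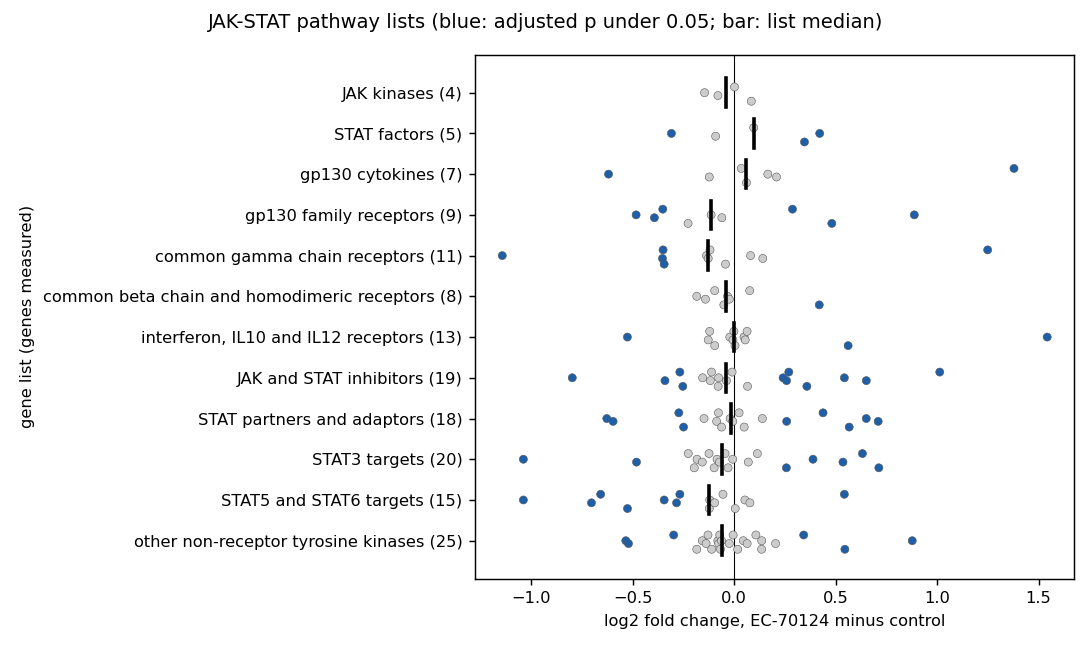
Log2 fold change (EC-70124 minus control, x axis) of each measured gene of the JAK and STAT families and of lists of their pathway (y axis, number of genes in parentheses); genes that passed an adjusted p of 0.05 (limma) are blue points, the others are gray, and a black bar marks each list's median. The JAK kinases lie between -0.15 and 0.08 and the STAT factors between -0.31 and 0.42, and single genes of the other lists lie beyond 1 in either direction.

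Over the pathway lists as a whole, 25 of 115 genes were up-regulated and 23 down-regulated, or 41.7% in either direction, against 34.5% of all genes (19.7% up-regulated and 14.8% down-regulated). With the methods' t-test the counts were 11 and 8. Of the 32 list genes named for the size of their change, 17 lost their call, with adjusted p from 0.0508 for PIM1 to 0.2496 for JUNB. IL4R, EBI3 and IL31RA, which are not among the 32, lost their calls as well. Among 25 other non-receptor tyrosine kinases, 3 rose and 3 fell (24%), with FER at 0.88, FRK at 0.55, PTK2, the focal adhesion kinase, at -0.53 and PTK2B at -0.52. FRK had an adjusted p of 0.0549 without EC-70124 replicate 2 and 0.0565 without control replicate 3. The 4 JAK kinases ranged from -0.15 to 0.08 on the same scale, and a difference between the JAK kinases and these kinases was not tested.

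JAK3 and STAT4 are best known from leukocytes, so that markers of these cells were read beside them. Of 11 leukocyte markers, 0 rose and 1 fell at an adjusted p under 0.05 from limma (9.09%, against 34.5% of all genes). Another 2 had an unadjusted p under 0.05 without passing. The marker that fell was CD68 (log2 fold change -0.33), a lysosomal protein that other cells express too, and 0 markers fell without control replicate 2 or without control replicate 3. Without EC-70124 replicate 3, 2 of the 11 rose. The summed intensity of the 11 was 9929.8 to 11564 in treated arrays and 12381 to 12809.8 in control arrays, and most of it came from CD68. Without CD68 the sum of the other 10 was 3675 to 3806 in treated and 3322 to 3629.8 in control arrays, and the median log2 fold change of the 11 was 0.03. PTPRC, which defines leukocytes, had 97.2, 104 and 88.7 in treated cells, and 105, 102 and 78.6 in control cells. The part of these markers in the JAK3 and STAT4 values was not tested. As to the identity of the cells, 4 of 6 markers of MDA-MB-231 fell (66.7%, against 34.5% of all genes called in either direction). They were FN1 at -1.10, EGFR at -0.39, CD44 at -0.29 and AXL at -0.27. The mesenchymal marker VIM, at 12837 to 13305 in treated and 13703 to 13991 in control arrays, did not pass. Of 8 luminal and receptor markers, GATA3 (0.46) and CDH1 (0.19) rose and KRT19 fell (-0.49), or 37.5% of them. KRT19 had a mean of 2748 in treated and 3808 in control cells. CDH1 was dim, with 169 to 188 in treated and 152 to 163 in control arrays. Its adjusted p from limma was 0.0490. The luminal counts changed with the settings. When single arrays were left out, 1 or 2 of the 8 rose and 0 or 1 fell. After quantile normalization, cyclic loess or an offset of 50, 1 rose and 1 fell. With the median of a gene's probe sets 3 rose, and with the methods' t-test 1 rose and 0 fell. The part of these markers in the JAK and STAT values was not tested. In the same list, the hormone receptor genes ESR1 and PGR had at most 233 and 163 in treated and 229.6 and 176 in control arrays. The receptor gene ERBB2 was brighter, with 1484 to 1566 in treated and 1442 to 1556 in control arrays.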

How the data were processed

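The 3 treated and 3 control samples were grouped by their titles. According to the study's methods, dChip was used by the authors for rank invariant normalization, and the deposited values are 1 intensity (MBEI) per probe set. For dChip's version and its background correction, the entry is: not given in the sources used here. Array medians were 451 to 460.1 in treated and 437 to 444 in control arrays, the arrays' log2 values correlated with a Pearson's r of 0.990 to 0.993 within groups and 0.979 to 0.984 between them, and the number of arrays limits the precision. No scan date or batch was given.

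Values under 1 were raised to 1 before log2 was taken. Of 33252 probe sets, 19460 carry 1 symbol, 1754 several and 12038 none in the platform annotation. For each of 18417 genes the brightest probe set with a single symbol was used. Its Entrez identifier was looked up in a GRCh38.p14 gene table, which altered 0 symbols and lacked 31 identifiers. lmFit and eBayes of limma 3.58.1 (R 4.3.3) were run on all genes and adjusted by Benjamini-Hochberg, with 0.05 as threshold. Tests were 2-sided. The scripts were tested on simulated data.

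The genes and lists were chosen with earlier results of these data known. Named from each list were up to 4 genes with the largest change past the threshold, the gene closest to passing where none did, and the 2 genes most like the member with the largest rise and the largest fall. IL4R, IL31, IL31RA, EBI3 and the single markers were named after their values were seen. Some listed genes are not reported here.

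Alternatives were quantile normalization, cyclic loess, an offset of 50, leaving out the 30% dimmest genes, eBayes with a trend and robust fitting, the median of a gene's probe sets, a t-test with unequal variances, called the methods' t-test although the methods use a t-test only to rank genes for gene set enrichment and not to call genes, the replicate number as a block, and leaving out each array.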

Additional observations from a re-analysis of the deposited data

How the results depend on the processing

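The calls of STAT4 and STAT6 held under every alternative in which they were tested, with log2 fold changes of 0.35 to 0.44 for STAT4 (13 alternatives) and 0.28 to 0.37 for STAT6 (14). STAT5B kept its sign in 14 of 14, from -0.38 to -0.25, and its call in 13, the exception being the methods' t-test. STAT4 is among the 30% dimmest genes, so that without them 1 of the 9 genes was up-regulated. JAK1, JAK3, TYK2 and STAT3 passed under 0 of 14 alternatives and kept their sign. Over these alternatives (limma or the t-test) the adjusted p spanned 0.0503 to 0.420 for STAT3 and 0.0686 to 0.433 for JAK3. JAK2, which was close to 0, had -0.0500 after quantile normalization, -0.0133 after cyclic loess, and -0.0404 to 0.0539 with single arrays left out (-0.0226 and -0.0241 without EC-70124 replicates 1 and 2, and -0.0404 without control replicate 3). STAT5A had -0.140 to 0.00045 with single arrays left out, the highest value being that without EC-70124 replicate 3. With the methods' t-test, 1962 genes were up-regulated and 1280 down-regulated, of the 9 genes 2 and 0, and of the pathway genes 11 and 8. The within-array difference of STAT5A and STAT5B was 0.17 to 0.26 and that of JAK2 and JAK1 0.04 to 0.12 with single arrays left out. With the replicate number as a block, 3521 genes were up-regulated and 2662 down-regulated, 2 and 1 of the 9 genes, and no call among the 9 changed. The numbers were not taken as pairs, since the deviations of same-numbered arrays from their group means correlated with r = 0.127, -0.0225 and 0.136, and of the EC-70124 arrays replicate 3 alone correlated best with the control of its own number. The 32 list genes named for the size of their change kept their sign in all 445 alternatives and lost their call in 26. Quantile normalization turned the split of all genes to 3112 up-regulated and 3527 down-regulated. Of the STAT3 targets, 4 or 5 fell under 5 alternatives, against 2 in the report, and of the other non-receptor tyrosine kinases 5 fell after quantile normalization. Of these kinases 1 rose, against 3 in the report, when the 30% dimmest genes were left out. Without the 30% dimmest genes 0 of the common gamma chain receptors rose, since IL2RG was left out, and 3 of the gp130 cytokines rose, against 2 with the block. The causes of lost calls were not tested. No measure of signal over background is part of the table, which limits what can be said of dim genes.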
